A study of Mus musculus with 6 samples.

Results

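The 9 genes described here encode some of the proteins that carry glucose into T cells, break it down by glycolysis and export lactate. They include the glucose transporter genes Slc2a1 and Slc2a3, the hexokinase gene Hk2 and the phosphofructokinase genes Pfkl and Pfkp. The others are the aldolase gene Aldoa, the triosephosphate isomerase gene Tpi1, the phosphoglycerate kinase gene Pgk1 and the monocarboxylate transporter gene Slc16a3. These 9 were taken by gene symbol from a deposited table of 854 genes, and all 9 were found in it. The samples were 3 libraries of OT-I Themis cKO cells and 3 libraries of OT-I wild-type (WT) cells. OT-I cells are CD8 T cells of mice that carry a transgenic T-cell receptor for an ovalbumin peptide, so both groups share that receptor; the cKO cells also carry a conditional knockout of Themis, which encodes a signalling protein of T cells. Naive cells were enriched from spleen and lymph nodes and kept in culture with 1 µg/ml IL-2 for 3 days before RNA extraction in both groups. The sources used here do not give the driver of the conditional deletion or the age of the mice. Nor do they say that replicates are separate animals, so p-values reflect spread among libraries that could be technical alone.

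Glucose enters T cells by facilitated diffusion and is trapped by hexokinase, which phosphorylates it. Phosphofructokinase then commits the sugar to glycolysis, aldolase splits it, triosephosphate isomerase interconverts the products, and phosphoglycerate kinase makes the first ATP of the pathway. Naive T cells use little glucose, and activated T cells raise glucose uptake and lactate output; IL-2, the T-cell receptor, MYC and hypoxia-inducible factor 1 (HIF-1) are known to raise transcripts of this pathway.

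Regulatory sequence of these genes is shown with the cores ACGTG and GCGTG, which HIF-1 binds. Whether HIF-1 had a part in the changes described below was not tested. The 250 bases before an annotated start were read from RefSeq promoter windows on GRCm38.p6, in which 8 of the 9 genes matched and Slc2a3 did not. Windows of Pfkp, Aldoa and Slc16a3 lie inside the gene spans given below, so the start they precede is within the gene. Positions count from the start that each window precedes. Printed 5′ to 3′ on the strand of the gene, with each ACGTG or GCGTG core on either strand in capitals, the windows of the 7 genes that hold at least 1 core, with 1 window for Aldoa, are:
Slc2a1 (chr4:119108495-119108744, plus strand): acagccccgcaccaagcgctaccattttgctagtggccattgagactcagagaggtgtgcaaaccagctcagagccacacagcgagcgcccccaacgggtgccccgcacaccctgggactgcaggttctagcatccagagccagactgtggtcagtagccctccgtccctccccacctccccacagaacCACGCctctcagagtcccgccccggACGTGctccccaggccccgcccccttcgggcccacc
Hk2 (chr6:82774455-82774704, minus strand): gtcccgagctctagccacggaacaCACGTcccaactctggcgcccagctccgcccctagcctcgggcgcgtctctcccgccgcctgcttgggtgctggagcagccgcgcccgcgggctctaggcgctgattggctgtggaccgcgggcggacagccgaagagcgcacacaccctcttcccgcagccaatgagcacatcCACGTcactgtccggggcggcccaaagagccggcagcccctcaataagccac
Pfkl (chr10:78009808-78010057, minus strand): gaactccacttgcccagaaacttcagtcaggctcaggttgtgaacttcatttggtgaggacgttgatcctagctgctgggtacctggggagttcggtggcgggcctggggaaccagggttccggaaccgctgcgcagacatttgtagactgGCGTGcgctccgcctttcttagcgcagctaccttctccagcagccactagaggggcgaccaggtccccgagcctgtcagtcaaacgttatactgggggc
Pfkp (chr13:6648772-6649021, minus strand): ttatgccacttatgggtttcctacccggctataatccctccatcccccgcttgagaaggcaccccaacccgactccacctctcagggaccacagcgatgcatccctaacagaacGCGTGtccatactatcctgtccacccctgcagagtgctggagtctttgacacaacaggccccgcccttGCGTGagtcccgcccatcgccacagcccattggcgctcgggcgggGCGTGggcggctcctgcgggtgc
Aldoa (chr7:126799255-126799504, minus strand): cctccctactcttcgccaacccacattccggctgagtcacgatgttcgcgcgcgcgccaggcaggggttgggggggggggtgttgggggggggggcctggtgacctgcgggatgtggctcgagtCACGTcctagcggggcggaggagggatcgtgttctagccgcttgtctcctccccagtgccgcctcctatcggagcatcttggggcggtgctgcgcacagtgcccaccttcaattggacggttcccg
Pgk1 (chrX:106186850-106187099, plus strand): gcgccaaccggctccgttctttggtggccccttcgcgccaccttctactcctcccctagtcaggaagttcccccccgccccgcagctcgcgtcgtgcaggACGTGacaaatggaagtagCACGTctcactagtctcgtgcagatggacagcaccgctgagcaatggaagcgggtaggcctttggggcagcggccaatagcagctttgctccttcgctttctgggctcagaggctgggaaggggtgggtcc
Slc16a3 (chr11:120948817-120949066, plus strand): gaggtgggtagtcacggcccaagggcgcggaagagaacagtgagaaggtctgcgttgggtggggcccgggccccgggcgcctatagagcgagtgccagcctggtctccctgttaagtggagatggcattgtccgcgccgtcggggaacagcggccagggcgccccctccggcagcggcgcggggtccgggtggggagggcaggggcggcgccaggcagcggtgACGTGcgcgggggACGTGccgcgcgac
ACGTG, read as CACGT on the other strand, was in the windows of 5 of the 8 genes: Slc2a1, Hk2, Aldoa, Pgk1 and Slc16a3. By window, of which Aldoa has 3, it was in 6 of 10, against 16.6% of 32851 promoter windows of the same length and 20.2% of the 833 windows of genes in the deposited table. Slc16a3 had both copies close to the start that its window precedes, at positions -27 and -14, and Pgk1 had its pair at -150 and -131. Pfkl and Pfkp had only GCGTG, read as CACGC on the other strand, at -99 in Pfkl and at -136, -68 and -23 in Pfkp. Slc2a1 held both cores, and Tpi1 held neither. With either core counted, 8 of 10 windows matched, against 38.6% of all windows and 45.1% of those of table genes. The 2 Aldoa windows that matched overlap and share 1 copy, and the printed Aldoa window is the upstream one of these. CACGTG, the E-box bound by MYC, which contains ACGTG, was in none of the 8 genes' windows and in 6.02% of all windows. The 10 windows were richer in G and C, at a median of 64.6%, than all windows at 52.4% or table-gene windows at 56.8%, and the shares above are not matched for it. A match describes letters in a window and not a bound site.

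A condition on every value below is how the table was made. No gene in it had a log2 ratio of cKO over WT mean counts between -0.94 and 1.06, so it holds genes that differ by about 2-fold or more, and passing a test within it is not independent evidence. Counts over the 854 genes summed to 424605 to 437437 in cKO libraries and 946766 to 1054442 in WT libraries; the depth of the full libraries is unknown. Scaled counts were therefore made by balancing the libraries within a genotype (factors of 0.944 to 1.04) and taking the genotypes at equal depth. Themis had 977, 1227 and 1215 scaled counts in cKO libraries, against 5524, 5784 and 4962 in WT libraries, a log2 fold change of -2.25 (SE 0.11, edgeR quasi-likelihood test, adjusted p = 5.15e-08). Of 9 genes listed for CD8 T cell identity only Themis is in the table, so the cell type of the cultures was not checked with the others.

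All 9 transcripts were lower in Themis cKO libraries than in WT libraries, and no cKO library reached the level of any WT library for any of them. The largest changes of the 9 were in transporter genes: Slc16a3, which exports lactate, was 9.50-fold lower, and Slc2a3, the high-affinity glucose transporter GLUT3, was 5.50-fold lower. The other 7 genes formed a narrow group, 2.0-fold to 2.61-fold lower. That group includes the other glucose transporter gene, Slc2a1, at 2.48-fold. All 9 passed edgeR's low-count filter and were called lower at an adjusted p of 0.05, in a table where 75.8% of 794 tested genes were called lower and 100% were called either way. Every cKO library lay below every WT library for 75.7% of the tested genes. The median log2 fold change was -1.30 over the 9 genes, -1.34 over all tested genes and -1.64 over the genes that were lower. In bulk RNA, fewer expressing cells and less RNA per cell cannot be told apart.

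**Figure D1:**
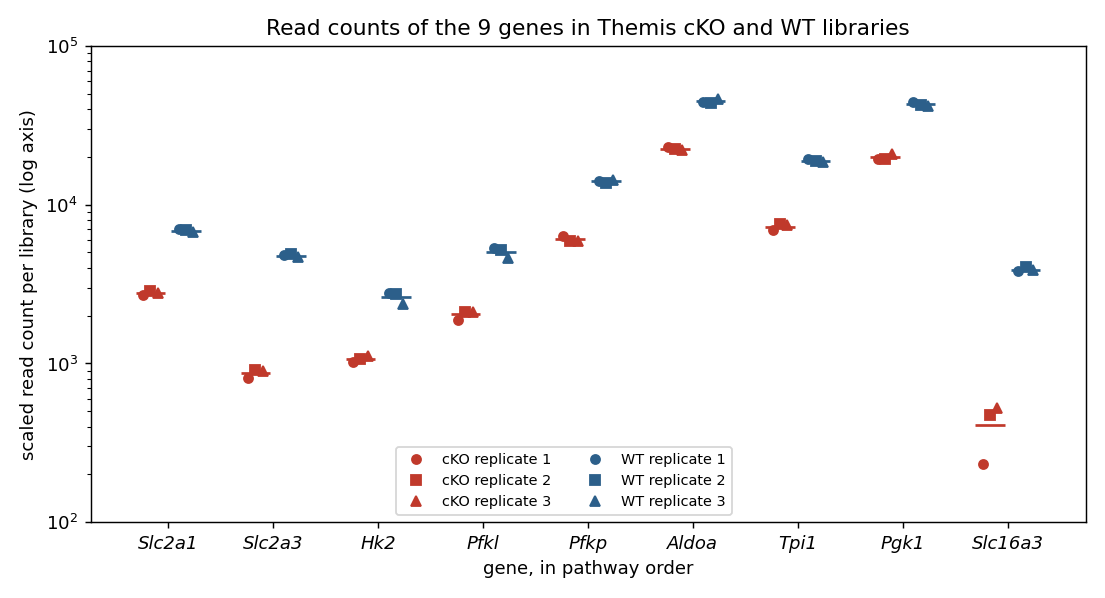
Scaled read counts (log axis) of the 9 genes in pathway order, with 1 point per library, cKO left of WT, and a bar at the mean of 3 libraries. Every cKO point lies below every WT point of the same gene, and cKO replicate 1 of Slc16a3, at 233, stands below the other cKO libraries.

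Glucose transporters differed from each other in the size of the change. Slc2a1 (Gene ID 20525, chromosome 4, 119108745 to 119137330 on GRCm38.p6) encodes GLUT1, the transporter that activated T cells bring to their surface. It had 2682, 2859 and 2776 scaled counts in cKO libraries, against 7012, 6890.0 and 6726 in WT libraries. The log2 fold change was -1.31 (SE 0.07, edgeR, adjusted p = 6.25e-08). Slc2a3 (Gene ID 20527, chromosome 6, 122727809 to 122802363) had 809.6, 908 and 890.4 scaled counts in cKO libraries, against 4803, 4869 and 4671 in WT libraries. The groups did not overlap, and the closest libraries, the highest cKO and the lowest WT, were 5.14-fold apart. Its log2 fold change was -2.46 (SE 0.08, edgeR, adjusted p = 8.71e-09), beyond that of 78.2% of the 602 genes that were lower.

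The kinases of the upper pathway changed alike in size. Hk2 (Gene ID 15277, chromosome 6, 82725025 to 82774454), the inducible hexokinase of activated T cells, had 1017, 1062 and 1122 scaled counts in cKO libraries, against 2771, 2738 and 2375 in WT libraries. WT replicate 3 was the lowest of its group and still 2.12-fold above the highest cKO library. Pfkl (Gene ID 18641, chromosome 10, 77986947 to 78009807), the liver-type phosphofructokinase subunit, had 1886, 2113 and 2123 scaled counts in cKO libraries, against 5320.5, 5158 and 4632 in WT libraries. Pfkp (Gene ID 56421, chromosome 13, 6579874 to 6649060), the platelet-type subunit, had 6361, 5891 and 5925 scaled counts in cKO libraries, against 14197, 13659 and 14312 in WT libraries. In Pfkl the lowest WT library was again replicate 3, while in Pfkp it was replicate 2, and neither gene's groups overlapped. The log2 fold changes were -1.30 for Hk2 (SE 0.10), -1.30 for Pfkl (SE 0.09) and -1.21 for Pfkp (SE 0.06), with edgeR adjusted p of 1.00e-06, 4.14e-07 and 5.38e-08.

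Aldoa, Tpi1 and Pgk1, enzymes of the middle of the pathway, rank 1, 3 and 2 in the table by WT level. Aldoa (Gene ID 11674, chromosome 7, 126795234 to 126800994) had 23009, 22383 and 21988 scaled counts in cKO libraries, against 44646, 43928 and 46226 in WT libraries. Its log2 fold change of -1.0 (SE 0.04, edgeR, adjusted p = 2.86e-08) was the smallest of the 9, close to the edge of the table's empty interval, and 7.48% of the genes that were lower changed less. Tpi1 (Gene ID 21991, chromosome 6, 124810586 to 124814158) had 6887, 7539.7 and 7416 scaled counts in cKO libraries, against 19528, 18940.5 and 18476 in WT libraries. Pgk1 (Gene ID 18655, chromosome X, 106187100 to 106203699) had 19443, 19499 and 20785 scaled counts in cKO libraries, against 44246, 42707 and 41823 in WT libraries. The log2 fold changes were -1.38 for Tpi1 (SE 0.06) and -1.11 for Pgk1 (SE 0.05), with edgeR adjusted p of 2.51e-08 and 2.71e-08. The lowest WT library of Pgk1 stood 2.01-fold above its highest cKO library.

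Slc16a3 (Gene ID 80879, chromosome 11, 120948484 to 120959000) encodes MCT4, a proton-linked carrier that releases lactate from glycolytic cells. It had 233, 472 and 525 scaled counts in cKO libraries, against 3801, 4022 and 3868 in WT libraries. Its cKO libraries spread more than those of any other gene here, with replicate 1 well below the other two, while its WT libraries lay within 1.06-fold of each other. The log2 fold change was -3.25 (SE 0.25, edgeR, adjusted p = 1.20e-06), and -2.97 without cKO replicate 1. The SD was 37.9% of the mean in cKO for Slc16a3, against 2.29% to 6.58% for the other 8 genes; in WT it was 2.09% to 8.36% over the 9 genes.

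Mean scaled counts with their SD (n = 3 each) place these libraries side by side. In pathway order they were 2772 ± 88.3 in cKO against 6876 ± 144 in WT for Slc2a1, and 869 ± 52.5 in cKO against 4781 ± 101 in WT for Slc2a3. For Hk2 they were 1067 ± 52.4 in cKO and 2628 ± 219.8 in WT. For the phosphofructokinase genes, Pfkl had 2041 ± 134 in cKO and 5037 ± 359.7 in WT, and Pfkp had 6059 ± 262 in cKO and 14056 ± 348 in WT. In no case did the SD approach the difference between genotypes. Aldoa had 22459.8 ± 515 in cKO and 44933 ± 1176 in WT, and Tpi1 had 7281 ± 347 in cKO and 18981 ± 527 in WT. Pgk1 had 19909 ± 759 in cKO and 42925 ± 1226 in WT, and Slc16a3 had 410.3 ± 156 in cKO and 3897 ± 114 in WT.

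The size of each change rests on the equal depth of the genotypes. TMM scaling and DESeq2 size factors centre the table on itself and moved the median log2 fold change of all tested genes by 1.29. Under either, Slc2a3 and Slc16a3 were still called lower, at -1.16 and -1.95 (edgeR, adjusted p of at most 1.80e-06 and 7.33e-05), against 26.9% of genes called lower under TMM and 26.8% under DESeq2 size factors. Aldoa and Pgk1 turned sign and were called higher, at 0.30 and 0.19, against 28.5% of genes called higher with either; Pfkp turned sign without a call, at 0.08. Slc2a1, Hk2, Pfkl and Tpi1 stood between -0.08 and -0.0015 and were not called (edgeR, adjusted p of 0.266 to 0.989). The authors' deposited table, whose log2 values come from the authors' own comparison, gives negative values for all 9 genes. They are -2.77 for Slc16a3, -2.16 for Slc2a3, -1.23 for Tpi1, -1.18 for Pfkl, -1.10 for Slc2a1, -1.07 for Hk2, -1.01 for Pgk1, -0.98 for Pfkp and -0.81 for Aldoa in the authors' deposited table. These are 0.09 to 0.48 smaller in size than the equal-depth fit. The authors' q-values of the deposited table ran from 6.68e-18 for Pfkl to 0.000148 for Pfkp, all 9 under 0.05. Of all 794 tested genes, 56.3% were both lower and under 0.05 by the authors' q-value.

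**Figure D2:**
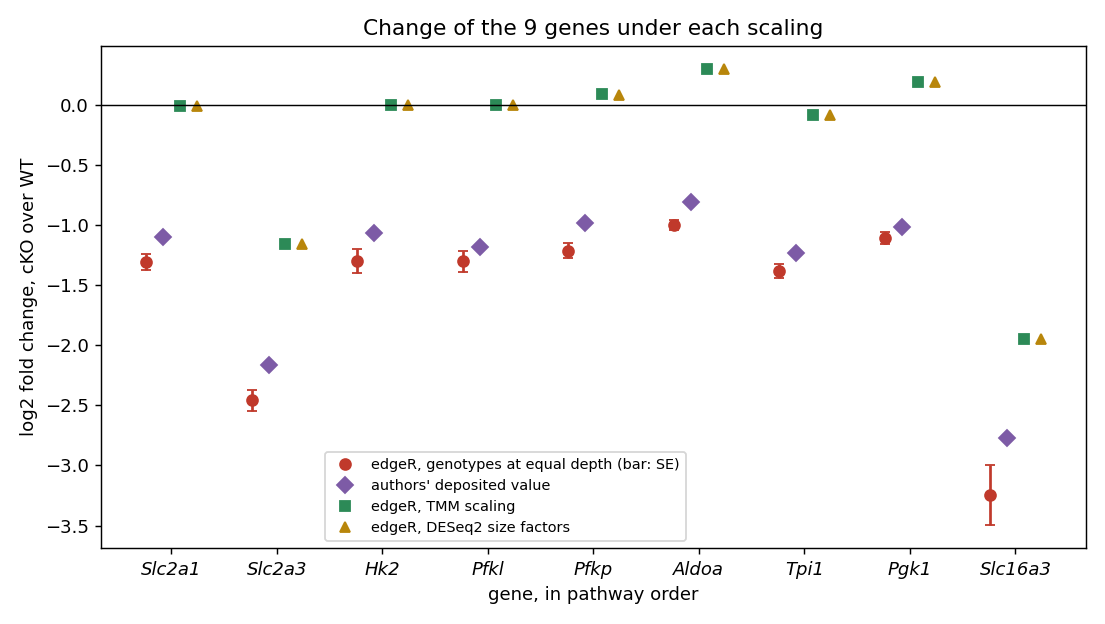
Log2 fold change of cKO over WT for each gene under equal genotype depth (circles, bars are the SE), in the authors' deposited table (diamonds), with TMM scaling (squares) and with DESeq2 size factors (triangles). Slc2a3 and Slc16a3 lie below 0 in all 4, while Pfkp, Aldoa and Pgk1 lie above 0 with the 2 scalings that centre the table on itself.

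Ratios between these genes within a library do not depend on how genotypes are scaled. Relative to Aldoa, the most abundant of them, Slc16a3 had 1.01%, 2.11% and 2.39% of the Aldoa count in cKO libraries, against 8.51%, 9.16% and 8.37% in WT libraries. Slc2a3 had 3.52%, 4.06% and 4.05% of the Aldoa count in cKO libraries, against 10.8%, 11.1% and 10.1% in WT libraries. The share carried by Slc16a3 was thus 5.04-fold lower in cKO and that of Slc2a3 was 2.75-fold lower, with no overlap between genotypes. Slc2a1, Hk2, Pfkl, Pfkp and Tpi1 were also lower relative to Aldoa without overlap, by 1.16-fold to 1.30-fold. Pgk1 over Aldoa overlapped, at 84.5%, 87.1% and 94.5% in cKO libraries and 99.1%, 97.2% and 90.5% in WT libraries.

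Between the glucose transporters, Slc2a3 had 30.2%, 31.8% and 32.1% of the Slc2a1 count in cKO libraries, against 68.5%, 70.7% and 69.5% in WT libraries, a 2.22-fold lower ratio. Between the phosphofructokinase subunits, Pfkp had 337%, 279% and 279% of the Pfkl count in cKO libraries and 267%, 265% and 309% in WT libraries, so the genotypes overlapped and the mean log2 ratio differed by 0.09. In all, 10 ratios were compared, of which 8 did not overlap and were lower in cKO. Aldoa is the least changed of the 9 genes, so its choice as the denominator fixes the direction of the mean change of every ratio to it, and the number of lower ratios shows nothing further. With 3 libraries against 3, a two-sided exact permutation test cannot go below p = 0.10; those 8 ratios had p = 0.10, Pgk1 over Aldoa 0.20 and Pfkp over Pfkl 0.50, and after Benjamini-Hochberg adjustment over the 10 ratios 0.125, 0.222 and 0.50. The 8 ratios to Aldoa share a denominator, so they are not independent of each other.

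**Figure D3:**
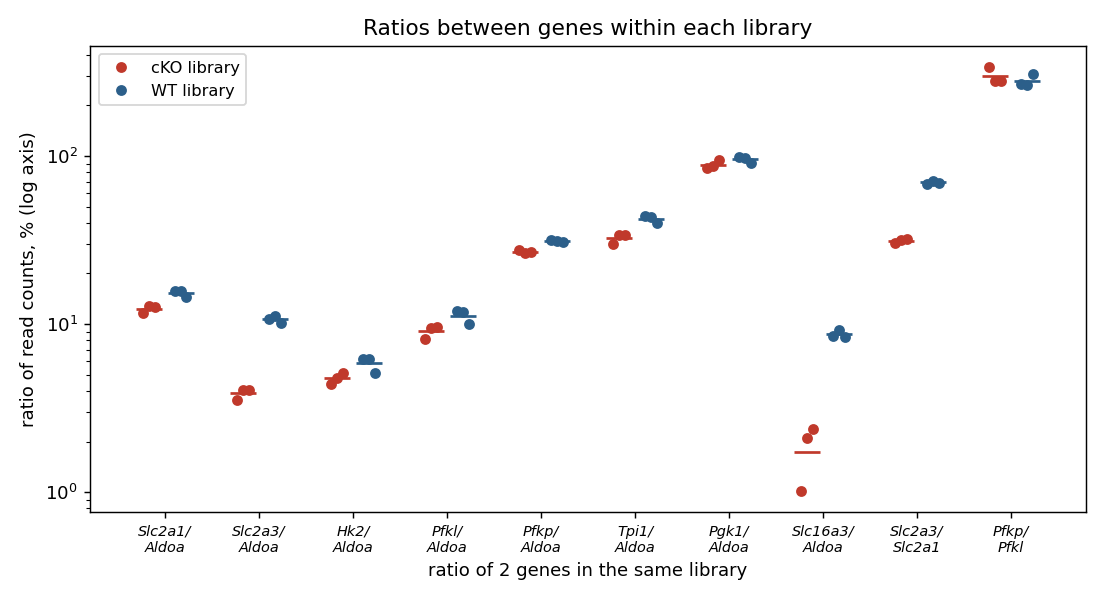
Ratio of read counts of 2 genes in the same library, in percent on a log axis, with 1 point per library and a bar at the geometric mean, cKO left of WT. Slc16a3 and Slc2a3 over Aldoa and Slc2a3 over Slc2a1 show the widest separation, and Pgk1 over Aldoa and Pfkp over Pfkl overlap.

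Levels of different genes were compared per kilobase of transcript, using the length of 1 principal transcript each in GENCODE M21. In cKO the order was Aldoa (14864 ± 341 scaled counts per kilobase, SD, n = 3), Pgk1 (10909 ± 416), Tpi1 (4531 ± 216), Pfkp (1462 ± 63.2), Slc2a1 (850.5 ± 27.1), Pfkl (547 ± 36.0), Slc2a3 (219.6 ± 13.3), Hk2 (194 ± 9.51) and Slc16a3 (181 ± 68.5). In WT it was Aldoa (29738 ± 778), Pgk1 (23521 ± 672), Tpi1 (11812 ± 328), Pfkp (3391 ± 84.0), Slc2a1 (2109 ± 44.1), Slc16a3 (1715 ± 50.04), Pfkl (1350.4 ± 96.4), Slc2a3 (1208 ± 25.5) and Hk2 (477 ± 39.9). Slc16a3 thus held rank 9 by its mean in cKO and rank 6 in WT. Its rank in cKO rests on replicate 1: its cKO libraries had 103, 208 and 231 scaled counts per kilobase, against 184, 193 and 203 for Hk2. Slc2a3 was next above Hk2 in both genotypes, closely in cKO and by a wide gap in WT. Libraries of neighbouring genes overlapped only for Hk2 and Slc16a3 in cKO. With the longest principal transcript of Slc16a3 its levels were 94.6 ± 35.9 in cKO and 899 ± 26.2 in WT, which puts it below Slc2a3 in WT as well. Of the summed per-kilobase level of the 9 genes, Aldoa made up 44.0% in cKO and 39.5% in WT, Slc16a3 0.534% in cKO and 2.28% in WT, and Slc2a3 0.650% in cKO and 1.60% in WT.

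Summed over the 9 genes, scaled counts were 62329, 62727 and 63550.3 in cKO libraries, against 146324, 142913 and 143109 in WT libraries. As a share of all counts in the table the sum was 14.58%, 14.58% and 14.81% in cKO libraries and 14.58%, 14.31% and 14.14% in WT libraries, which overlap. The 9 genes together moved about as much as the table's counts as a whole.

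Other genes of the pathway came from a list of 44 glycolysis and glucose uptake genes, of which 16 are in the table, the 9 above and 7 more. The others are absent from the table, which holds genes that differ by about 2-fold or more. The values below therefore do not describe the list as a whole. Of the 7, 6 were tested and all 6 were called lower, against 75.8% of all tested genes; their median log2 fold change was -1.49, beside -1.34 over all tested genes. With TMM or DESeq2 size factors only Aldoc and Pgm2 of the 6 were called lower; Slc2a6 and Hk3 kept their sign without a call, and Pfkfb3 and Txnip turned sign. Aldoc, the brain-type aldolase paralog of Aldoa, fell to 95.1 ± 26.7 scaled counts in cKO, against 1099.7 ± 67.6 in WT, a log2 fold change of -3.53 (SE 0.19, edgeR, adjusted p = 9.87e-08). Its count was 0.319%, 0.558% and 0.395% of that of Aldoa in cKO libraries, against 2.40%, 2.68% and 2.28% in WT libraries; this ratio was chosen after the values were seen. Pgm2, a phosphoglucomutase that links glucose-1-phosphate to the pathway, had 939 ± 52.9 scaled counts in cKO and 3422 ± 42.2 in WT (log2 fold change -1.87). The transporter gene Slc2a6 had 57.6 ± 11.8 scaled counts in cKO and 183 ± 16.3 in WT (-1.67).

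Pfkfb3, whose product makes the activator of phosphofructokinase, had 764 ± 27.7 scaled counts in cKO and 1608 ± 202 in WT (-1.07). Txnip, which restrains glucose uptake, had 2978 ± 302 in cKO and 5970.3 ± 621 in WT (-1.0), so a gene of opposite known role fell too. Under TMM or DESeq2 size factors Txnip was called higher instead, at 0.29 on the log2 scale (edgeR, adjusted p = 0.0319 and 0.0351). Hk3 was low, with 16.4 ± 9.86 scaled counts in cKO and 41.0 ± 10.4 in WT (-1.32, edgeR adjusted p = 0.00950), and its authors' q-value in the deposited table was 0.511.

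**Figure D4:**
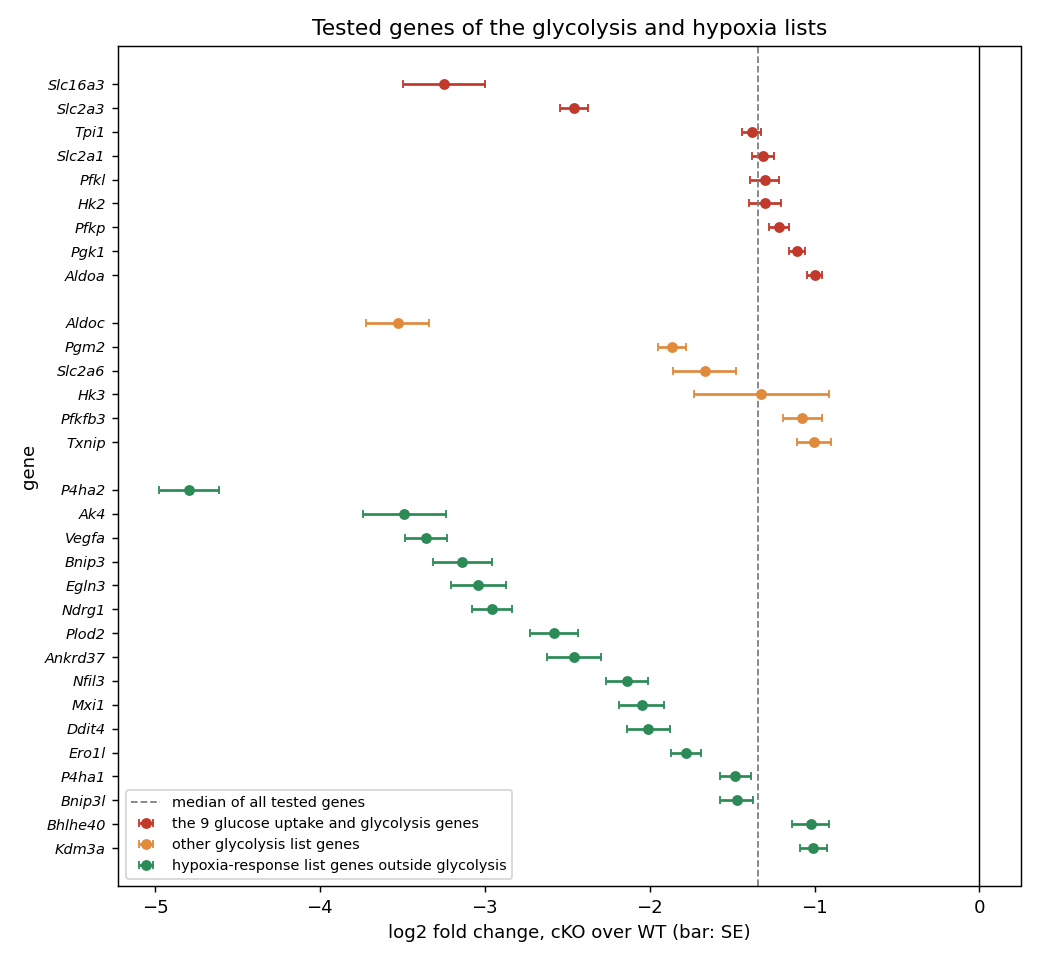
Log2 fold change, cKO over WT, with SE bars, for the 9 genes, for the 6 other tested genes of the glycolysis list and for the 16 genes of the hypoxia list, with the median of all tested genes (-1.34) as a dashed line. Slc16a3, Slc2a3, Tpi1, Aldoc, Pgm2, Slc2a6 and all hypoxia genes but Bhlhe40 and Kdm3a have points left of that line, Tpi1 by less than its SE; Aldoa, Txnip and Kdm3a lie near -1.

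A list of 25 hypoxia-response genes outside glycolysis had 16 in the table, all called lower, against 75.8% of all tested genes. The median log2 fold change of the 16 was -2.30, beside -1.30 for the 9 glycolysis genes and -1.34 for all tested genes. Here too the values do not describe the listed genes that are absent from the table. With TMM or DESeq2 size factors 12 of the 16 were called lower, against 26.9% and 26.8% of all tested genes; Kdm3a and Bhlhe40, named after their values were seen, turned sign, and Kdm3a was called higher (edgeR, adjusted p = 0.0117 and 0.0153). The 4 with the smallest p were P4ha2 (-4.79), Vegfa (-3.35), Ndrg1 (-2.95) and Ero1l (-1.78). Of the 9 glycolysis genes, 7 had their lowest cKO value in replicate 1, as did 8 of the 16 hypoxia genes and 283 of 794 tested genes. The ratio of Slc16a3 to the hypoxia-response gene Ak4 was chosen after the values were seen. It was 393%, 410.5% and 388% in cKO libraries and 332%, 316% and 364% in WT libraries. Every cKO ratio was above every WT ratio, so Ak4 was reduced more than Slc16a3. In cKO replicate 1 Ak4 was low together with Slc16a3. The ratio of Slc16a3 to Bnip3, another hypoxia-response gene chosen in the same way, was 81.8%, 127% and 107% in cKO libraries and 110.2%, 115% and 123% in WT libraries. It was lowest in cKO replicate 1, where Slc16a3 was reduced more than Bnip3, and the genotypes overlapped.

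The tested genes closest in profile over the 6 libraries to the median of the 9 were Trim25, Nlrp3, Malt1, Zfp36l1, Sla and Fam162a, at Euclidean distances of 0.05 to 0.16 on gene-centred log2 values (6 libraries, 750 genes compared). Their log2 fold changes were -1.27 to -1.43, and Slc2a1 itself lay 0.06 from that median profile, against 1.37 for Slc2a3 and 2.57 for Slc16a3. Nlrp3 rests on about 11 counts per cKO library.

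Markers of other cell types are in the table only where they differed by about 2-fold or more, so the counts below do not describe whole lists. Of the 794 tested genes, 192 were called higher in cKO. In scaled counts the NK-type sum was above Slc16a3 and above Slc2a3 in cKO libraries, and below both in WT libraries. That sets a sum over genes beside single genes, with no correction for length. Of 11 B cell markers 4 are in the table, all higher in cKO, with a summed level of 134 to 367 scaled counts in cKO libraries and 63.9 to 109 in WT libraries. Of 12 NK-type markers 6 are in the table, all higher in cKO, at 984 to 1666 in cKO libraries and 394 to 578 in WT libraries. Of 17 myeloid and dendritic markers 5 are in the table, 3 higher and 2 lower, at 384 to 388 in cKO libraries and 653 to 819 in WT libraries. No marker of these 3 lists in the table was at 0 over a genotype. Replicate 1 was the cKO library with the lowest B cell sum, the highest NK-type sum and the lowest Slc16a3. Whether cells of these types were present, and what part they had in the results above, was not tested.

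Counting sets limits on some genes. The counts of Pfkl, Pfkp, Aldoa and Slc16a3 are not whole, as estimates per gene can be when reads fit more than 1 gene. Whether their levels are less certain than those of the other 5 was not tested. Slc2a1, Hk2, Pfkp, Aldoa and Tpi1 overlap a gene on the opposite strand, and Slc2a3 a pseudogene on its own strand, in GENCODE M21; the sources used here do not say whether counting used the strand, and without it reads of such partners cannot be told apart.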

How the data were processed

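Column-extracted RNA of OT-I cells was sequenced in 3 Themis cKO and 3 WT libraries on DNBSEQ-G400, per the labels' protocols. The submitters' processing notes name, with no role given, build GRCm38.p6, RSEM 1.2.12, HISAT2 2.0.4, DESeq2 1.4.5 and Bowtie2 2.2.5. The authors deposited an estimated count per gene and library (66.1% of values are whole). The authors also deposited, for each gene, a log2 fold change with its q-value and p-value; the sources used here do not say how the 854 genes were selected.

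Counts were rounded and fitted over all genes in edgeR 4.0.16 (R 4.3.3; quasi-likelihood test, genotype as the only term, low-count filter with a smallest count of 10, 794 genes tested), with Benjamini-Hochberg adjustment over all of them. Libraries were scaled within genotype by median-of-ratios factors, with genotypes at equal depth. SEs were computed from F statistics. Ratios used unrounded counts. Lengths came from GENCODE M21 (GRCm38) in place of the planned RefSeq exon lengths. RefSeq gave positions and promoters. The fit was also run on simulated counts with known depth in which most genes did not change. The deposited table differs in both respects, so that run does not bear on the fold changes above.

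The genes, the lists and the scaling were chosen with earlier results of these data known. Named genes are the 9, Themis, the table members of the glycolysis list, up to 4 per other list by smallest p, and the 6 closest profiles (log2 of the scaled count + 1, predicted genes left out); Ak4, Bnip3, Kdm3a and Bhlhe40 were named after their values were seen. One untested gene of the glycolysis list is not reported here. Libraries of a genotype differed by more than sampling noise (6.34 to 19.7 for chi-square over its degrees of freedom), so all 6 were kept. Alternatives covered scaling, test (DESeq2 1.42.0), filter, number of genes in the adjustment, leaving out each library, and a replicate block. Other steps ran in Python 3.11.15 with matplotlib 3.10.9, scipy 1.17.1, pandas 2.3.3 and numpy 2.4.6.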

Additional observations from a re-analysis of the deposited data

How the results depend on the processing

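With TMM scaling the median log2 fold change of the 9 genes was -0.0045 and 2 of the 9 were called lower; with DESeq2 size factors these were -0.0060 and 2. Signs turned for Pfkp (0.084 with TMM, 0.083 with DESeq2 size factors), Aldoa (0.298 and 0.297) and Pgk1 (0.190 and 0.189), since both scalings centre the table on itself by construction. Over all tested genes 211 were then called lower and 224 higher with either, against 602 and 192 at equal depth. Centring the empty interval on 0 gave a median of -1.36, and 9 called lower, beside 604 of 796 tested genes. All 9 stayed called lower without scaling within genotypes (604 of 796 tested genes did so), in DESeq2 (602 of 794) and without the low-count filter (650 of 854). They also stayed called with adjustment over the 16996 genes that the deposited p- and q-values imply, where 558 of 794 were called lower. Those values gave a whole rank within 0.02 for 70.9% of 426 genes. With each library left out the count was 9 throughout, beside 602 to 616 of 801 to 811 tested genes. The median then ran from -1.36 to -1.26. With a library left out, 8 to 10 of the 10 ratios did not overlap, and the log2 ratio of Pfkp over Pfkl ran from -0.0031 without cKO replicate 1, where its sign turned, to 0.161 without WT replicate 3. With replicate number as a block, the 9 genes were called lower, beside 602 of 794 tested genes, and their median was -1.30. Of the 10 ratios, 8 moved the same way in all pairs. Deviations of same-numbered libraries correlated at -0.06, -0.05 and -0.16, and no library correlated best with its own number. These values showed no pairing by number. With 3 libraries per genotype and genes that differ by genotype, they cannot exclude it. Fold sizes are limited by the unknown library depths.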

Other observations

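Of 14 listed regulators that raise glycolytic transcripts in T cells, 2 are in the table. Irf4, a factor whose level follows T-cell receptor signal strength, had 1469 ± 144 scaled counts in cKO and 7565 ± 687 in WT, a log2 fold change of -2.36 (SE 0.10, edgeR quasi-likelihood test, adjusted p = 2.60e-08), and -1.07 with TMM or DESeq2 size factors. Myc had 7539.7 ± 343 scaled counts in cKO and 15776 ± 542 in WT, a log2 fold change of -1.07 (SE 0.06, edgeR, adjusted p = 1.27e-07) that turned to 0.23 with either of those scalings, where Myc was called higher (edgeR, adjusted p = 0.0100 with TMM and 0.0083 with DESeq2 size factors). Of 20 genes of pyruvate entry and the TCA cycle only Pcx, the pyruvate carboxylase gene, is in the table, with 159 ± 9.12 scaled counts in cKO and 368 ± 22.5 in WT (-1.21), turning to 0.09 with either scaling. Of 8 pentose phosphate pathway genes 0 are in the table, and they were not analysed here.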
